A study of Mus musculus with 8 samples.

Results

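The genes described are Nrf2, its inhibitor Keap1 and 8 direct antioxidant targets: *Nfe2l2*, *Keap1*, *Nqo1*, *Hmox1*, *Gclc*, *Gclm*, *Slc7a11*, *Gsr*, *Txnrd1* and *Srxn1*. They were taken by gene symbol, and all 10 were found among the 18770 genes of the table. *Nfe2l2* encodes Nrf2, a transcription factor that pairs with small Maf proteins and binds antioxidant response elements. Under resting conditions Keap1 holds Nrf2 for degradation through a Cul3 and Rbx1 ubiquitin ligase, and oxidants or electrophiles that modify Keap1 let Nrf2 accumulate. In skin the pathway is known for detoxification and glutathione supply in keratinocytes, and some plant flavonoids are known to activate it. Most of this control acts on Nrf2 protein, which was not measured here.

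The mice were wildtype, C57BL/6 and 7 to 8 weeks old by the labels, and C57BL/6J and all male by the study's methods, with 4 mice per group. The AP group received alpinetin, a plant flavonoid, at 3 mg/ml in 20 µl of 65% ethanol on depilated back skin once a day. The VC group received the same volume of 65% ethanol alone. Skin was taken at D4 after depilation, and mRNA was measured in dermis with hair follicles after the interfollicular epidermis had been removed. The libraries are named by group with a running number (VC.1, AP.1 and so on), and none could be tied to the label of an individual mouse.

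The groups differed in depth and composition before any gene was compared. Each VC library held between 6454563 and 7264151 counted reads and each AP library between 8507783 and 11190113. Mitochondrially encoded genes took 48.4% ± 5.81 of these reads with vehicle and 8.66% ± 2.63 with alpinetin (SD, n = 4 each). Outside these genes, 3080758 to 3762217 reads were left per VC library and 7561598 to 10594787 per AP library, so the same level rested on fewer reads in the VC group. Values below are normalized counts, that is, reads divided by 1 size factor per library. Fold changes are AP over VC on the log2(value + 1) scale, with p-values from limma adjusted over the 15964 genes tested, among which all 10 genes were.

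None of the 10 genes passed an adjusted p of 0.05 in either direction (limma), where the AP group was higher for 6.3% of all genes tested and lower for 4.0%. By the criteria of the study's methods, an unadjusted p under 0.01 with a fold change over 1.5, the count was also 0, beside 8.3% of all genes higher and 5.3% lower. In this fit *Gclc* alone had an unadjusted p under 0.05, which is 1 of 10 genes beside 30.3% of all genes tested. On the recovered reads 0 of the 10 were called as well by edgeR (6.28% of all genes higher, 4.46% lower), DESeq2 (10.5% and 8.53%) and limma-voom (5.37% and 5.85%). The ranges of the VC and AP libraries overlapped for all 10 genes, whereas 10.3% of all genes lay entirely higher with alpinetin and 8.9% entirely lower. The log2 fold change was above 0 for 6 genes and below 0 for 4, with a median of 0.08 beside 0.06 for all genes tested.

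**Figure D1:**
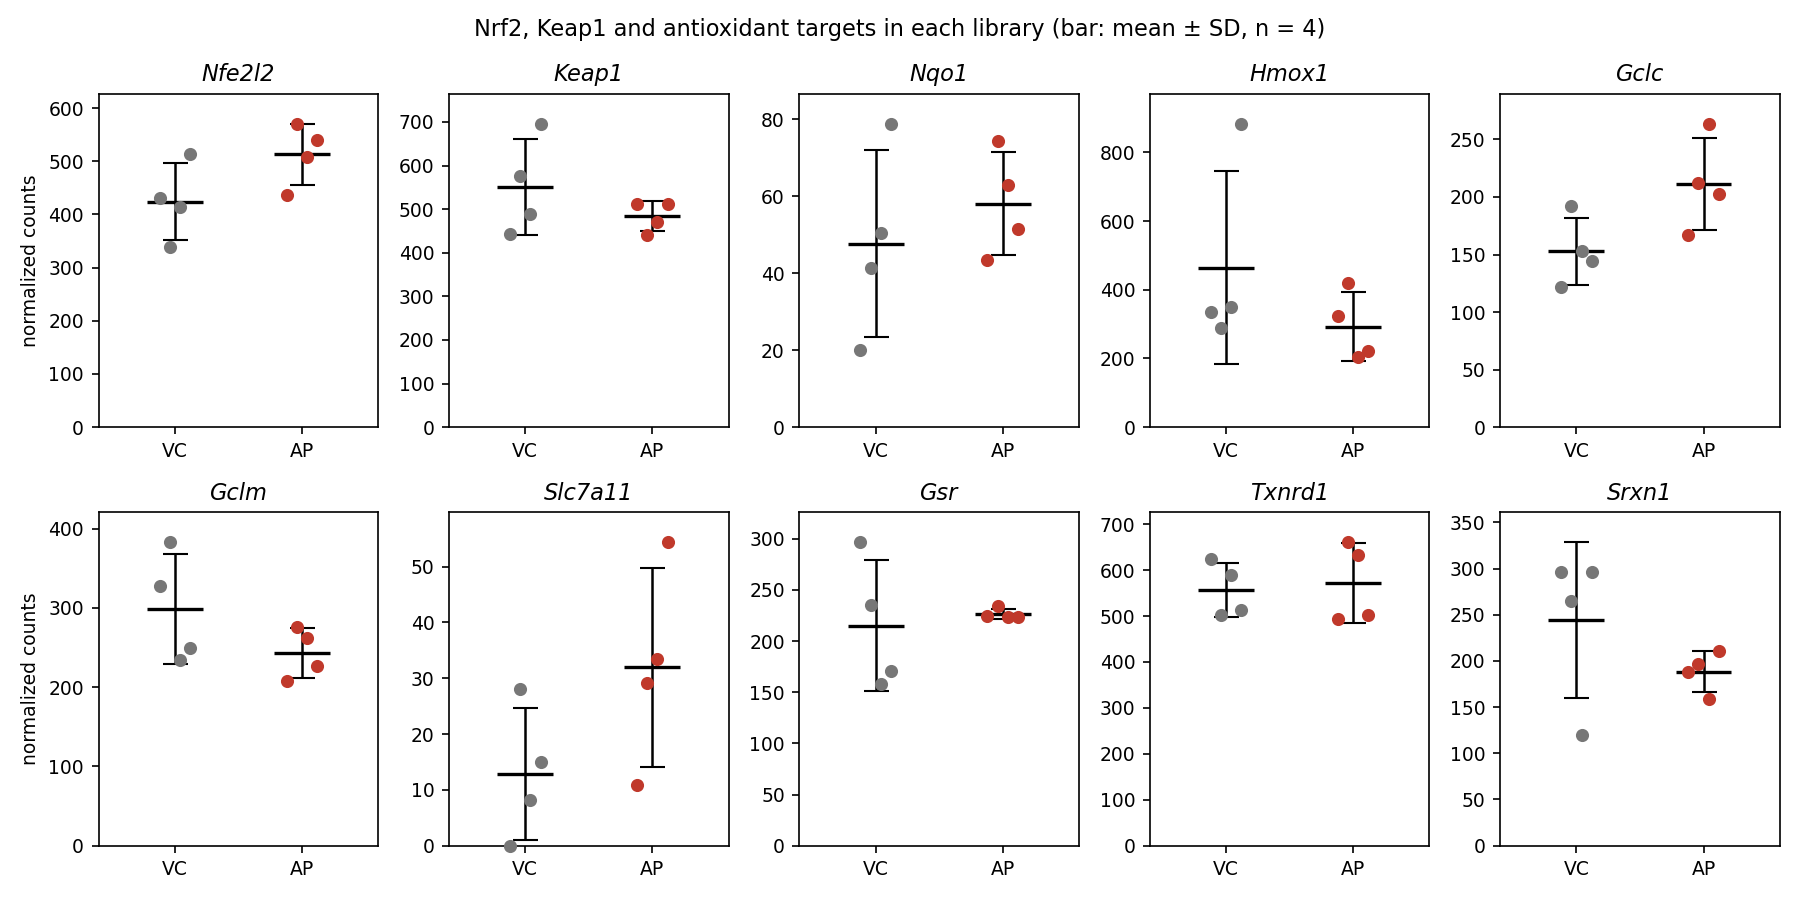
Normalized counts of the 10 genes in each library, 4 VC (grey) and 4 AP (red), with the vertical axis of each panel starting at 0. Horizontal bars are group means with their SD (n = 4), and in every panel the points of the groups overlap, with *Hmox1* in VC.4 at 883 far above the other VC libraries.

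The regulators were both well above the counting floor. *Nfe2l2* (ENSMUSG00000015839, chr2:75675513-75704641, minus strand, mm10) stood at 431, 338, 414 and 514 in the VC libraries, given in the order of their numbers here and below, and at 437, 569, 508 and 540 in the AP libraries. Only AP.2 and AP.4 exceeded the highest VC library, and AP.1 lay within the VC range. In log2 units the difference was 0.28 (SE 0.17, 95% confidence interval -0.08 to 0.65, adjusted p = 0.275 from limma), and 0.18 without VC.2 and 0.38 without VC.4. *Keap1* (ENSMUSG00000003308, chr9:21229730-21239361, minus strand), the substrate adaptor that presents Nrf2 to the ligase, stood at 444, 575, 489 and 696 in the VC libraries and at 513, 441, 471 and 511 in the AP libraries. VC.4 was the highest library of all and AP.2 the lowest, with the other 6 between them. Its log2 fold change was -0.17 (SE 0.17, interval -0.53 to 0.20, adjusted p = 0.526), and -0.05 without VC.4 and -0.26 without VC.1. The intervals leave room for an *Nfe2l2* level between 0.944 and 1.57 times that of the VC group, and for *Keap1* between 0.691 and 1.15 times.

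Within a library, the ratio of *Nfe2l2* to *Keap1* does not depend on the scaling between libraries. It was 0.971, 0.589, 0.846 and 0.739 in the VC libraries and 0.851, 1.29, 1.08 and 1.06 in the AP libraries. AP.2, AP.3 and AP.4 lay above every VC library, and AP.1 lay below VC.1.

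*Nqo1* and *Hmox1* encode the enzymes most often read as reporters of Nrf2 activity. *Nqo1* (ENSMUSG00000003849, chr8:107388225-107403206, minus strand), a quinone reductase, stood at 20, 41.4, 50.5 and 78.8 in the VC libraries and at 43.5, 74.4, 62.8 and 51.5 in the AP libraries. The extremes of both signs were VC libraries, VC.1 at the bottom and VC.4 at the top, and all AP libraries lay between them. The lowest value rested on 11 reads, and the AP values on 60 to 138 reads. The log2 fold change was 0.40 (SE 0.41, interval -0.48 to 1.29, adjusted p = 0.529), and it was 0.05 without VC.1 and 0.69 without VC.4.

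*Hmox1* (ENSMUSG00000005413, chr8:75093621-75100589, plus strand), the inducible haem oxygenase, stood at 335, 288, 350 and 883 in the VC libraries and at 325, 420, 204 and 222 in the AP libraries. VC.4 was far above all others, AP.3 and AP.4 were below every VC library, and AP.1 and AP.2 lay within the VC range. The fold change was, in log2, -0.57 (SE 0.34, interval -1.32 to 0.19, adjusted p = 0.291), and -0.20 without VC.4. *Hmox1* is also strongly expressed by macrophages that clear red blood cells, and summed macrophage markers were likewise highest in VC.4 (23202 normalized counts) and next highest in VC.1 (17378), where *Hmox1* was 335. Fewer cells of a type and less RNA per cell cannot be told apart in bulk tissue, and the part of macrophages in the *Hmox1* values was not tested.

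Glutathione synthesis starts with glutamate cysteine ligase, made of the catalytic subunit Gclc and the modifier subunit Gclm. *Gclc* (ENSMUSG00000032350, chr9:77754535-77794485, plus strand) stood at 122, 192, 153 and 144 in the VC libraries and at 167, 212, 264 and 202 in the AP libraries. AP.2, AP.3 and AP.4 were above every VC library, while AP.1 was below VC.2. AP over VC, the log2 fold change was 0.46 (SE 0.21, interval 0.00 to 0.93), with an unadjusted p of 0.0488 and an adjusted p of 0.163 from limma. That unadjusted p depended on the setting. In limma it was 0.0781 with upper-quartile factors, 0.157 without AP.3 (log2 fold change 0.35) and 0.0230 without VC.2 (0.58). It was 0.0523 in edgeR and 0.0458 in DESeq2. An exact permutation test (two-sided, 70 ways to divide the 8 libraries) gave p = 0.0571 for *Gclc*, where the smallest p possible is 0.0286. *Gclm* (ENSMUSG00000028124, chr3:122245557-122270732, plus strand) stood at 327, 383, 235 and 249 in the VC libraries and at 208, 276, 263 and 227 in the AP libraries. AP.1 and AP.4 were below every VC library, and AP.2 and AP.3 were inside the VC range. Its log2 fold change was -0.28 (SE 0.20, interval -0.71 to 0.16, adjusted p = 0.372), with -0.15 without VC.2. With a trend on transcript length removed it was -0.56 (unadjusted p = 0.0164, adjusted p = 0.104, limma).

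Neither subunit passed the test with the deposited factors, and the groups overlapped for each, but not for their ratio. The ratio of *Gclm* to *Gclc* was 2.69, 1.99, 1.54 and 1.73 in the VC libraries and 1.25, 1.30, 0.996 and 1.12 in the AP libraries. Every AP library lay below every VC library, with a VC mean of 1.99 ± 0.503 and an AP mean of 1.17 ± 0.136 (SD, n = 4 each). Per kilobase of the longest transcript, the mean ratio was 1.22 ± 0.308 and 0.714 ± 0.0834, so that on average *Gclm* was the more abundant subunit on that scale in the VC group and *Gclc* in the AP group. The ratio is a description without a test, and it was 1 of the 2 ratios given per library. Among all pairs of the 11226 genes averaging 50 normalized counts or more with no library at 0, the ratio separated the groups in 21.5%, and in 7.63% of the pairs in which both genes overlapped. Of the 36 pairs among the 10 genes without *Slc7a11*, it did so in 2 (5.56%), a smaller share than the 7.63%.

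**Figure D2:**
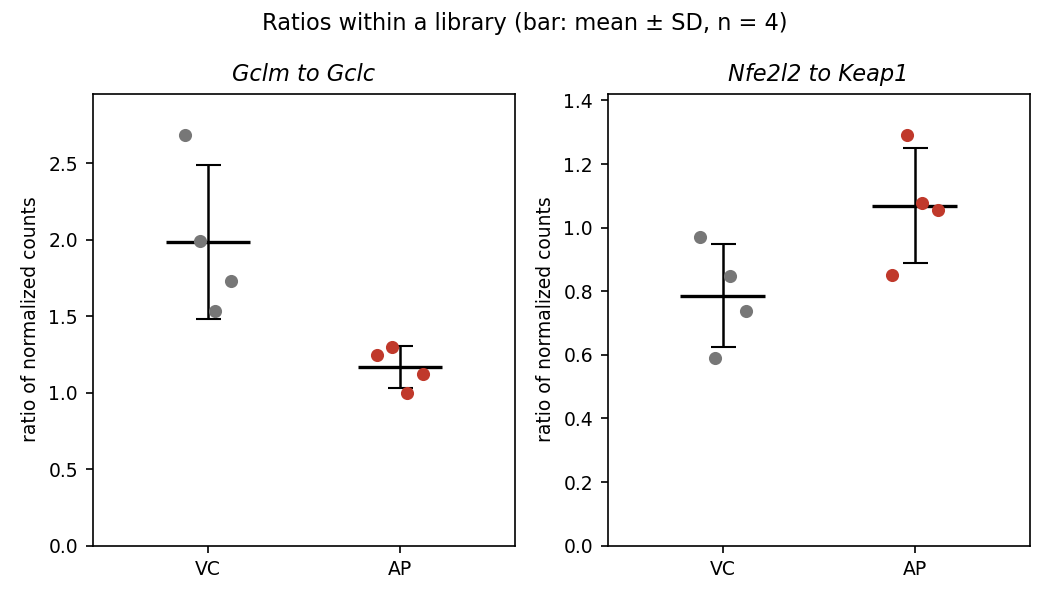
Ratio of the normalized counts of *Gclm* to *Gclc* (left) and of *Nfe2l2* to *Keap1* (right) within each library, 4 VC (grey) and 4 AP (red), with means and SD. The lowest VC library for *Gclm* to *Gclc* is at 1.54 and the highest AP library at 1.30, while the groups overlap for *Nfe2l2* to *Keap1*.

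*Slc7a11* (ENSMUSG00000027737, chr3:49892526-50443614, minus strand), the cystine importer that feeds glutathione synthesis, was the least abundant of the 10 genes. In normalized counts, it stood at 0, 28.1, 8.19 and 15.0 in the VC libraries and at 10.9, 29.1, 33.4 and 54.4 in the AP libraries. These values rested on 0, 19, 6 and 8 reads and on 15, 54, 67 and 76 reads. AP.2, AP.3 and AP.4 were above every VC library, AP.2 by a narrow margin, and AP.1 lay below VC.2 and VC.4. In VC.1, a count of 0 allows up to 5.46 normalized counts, a limit that covers counting error only. The group means were 12.8 ± 11.9 and 31.9 ± 17.9 (SD, n = 4 each). The log2 fold change was 1.83 (SE 0.93, interval -0.20 to 3.86, adjusted p = 0.206 from limma), the largest of the 10 genes. Single libraries moved it both ways, to 0.82 without VC.1, the library at 0, and to 2.44 without VC.2 (adjusted p = 0.111), and it was 1.21 with a pseudocount of 5 and 2.09 with a pseudocount of 0.5.

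*Gsr* (ENSMUSG00000031584, chr8:33652523-33698163, plus strand), which reduces oxidized glutathione, stood at 297, 235, 158 and 171 in the VC libraries and at 225, 234, 223 and 223 in the AP libraries. All AP libraries lay between 223 and 234, inside the VC range. The coefficient of variation was 29.7% among VC libraries and 2.30% among AP libraries, and the log2 fold change was 0.12 (SE 0.21, interval -0.35 to 0.58, adjusted p = 0.741). The AP values rested on 310, 434, 448 and 312 reads, where counting error alone is larger than that AP spread, so their closeness is not read further.

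On the thioredoxin side, *Txnrd1* encodes the cytosolic thioredoxin reductase and *Srxn1* the enzyme that restores overoxidized peroxiredoxins. *Txnrd1* (ENSMUSG00000020250, chr10:82833951-82897712, plus strand) stood at 624, 502, 589 and 514 in the VC libraries and at 493, 660, 633 and 502 in the AP libraries. AP.2 and AP.3 were above every VC library and AP.1 and, only just, AP.4 below every VC library, so the AP group enclosed the VC group. The log2 fold change was 0.03 (SE 0.16, interval -0.31 to 0.38, adjusted p = 0.912), the smallest of the 10 genes in absolute size. *Srxn1* (ENSMUSG00000032802, chr2:152105516-152111376, plus strand) stood at 297, 265, 120 and 296 in the VC libraries and at 188, 196, 159 and 211 in the AP libraries. VC.3 was the lowest of all and the other VC libraries were above every AP library. In log2 units, AP over VC was -0.29 (SE 0.28, interval -0.90 to 0.32, adjusted p = 0.507). Without VC.3 it was -0.60 with an unadjusted p of 0.00708 and an adjusted p of 0.0591 (limma). This was the only setting in which *Srxn1* met the criteria of the methods. Leaving out VC.1 or VC.4 instead gave -0.17.

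Levels were ranked between genes per kilobase of the longest transcript. The order depends on this choice of length, since *Txnrd1* has 3622 bases in its longest transcript but 7086 exonic bases. In the VC group *Hmox1* was first (296 ± 179 normalized counts per kilobase, SD, n = 4), followed by *Nfe2l2* (171 ± 29.1), *Txnrd1* (154 ± 16.2) and *Keap1* (152 ± 30.7). In the AP group the same 4 genes led, with *Nfe2l2* (207 ± 23.1) before *Hmox1* (187 ± 63.8), *Txnrd1* (158 ± 24.0) and *Keap1* (134 ± 9.62). Neighbours within these 4 overlapped in both groups, and in each group every library of *Keap1* lay above every library of the next gene. *Srxn1*, *Gsr*, *Gclm* and *Gclc* followed in the VC group, between 86.9 ± 29.9 and 44.6 ± 8.55, each overlapping the next. In the AP group *Gsr* (84.7 ± 1.94) came before *Srxn1* (67.0 ± 7.79), *Gclc* (61.7 ± 11.7) and *Gclm* (43.5 ± 5.58). *Nqo1* was ninth in both groups (30.7 ± 15.7 and 37.4 ± 8.67), and *Slc7a11* was last, with 1.39 ± 1.29 and 3.46 ± 1.94, below every library of *Nqo1*.

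From library to library, some of the 10 genes varied together and others in opposite directions, which is described here without a test. Over the 8 libraries, after subtraction of the group means of the log2 values, Pearson's r of the 45 gene pairs had a median of 0.06 and ranged from -0.79 (*Nqo1* and *Gsr*) to 0.74 (*Gclc* and *Slc7a11*), with 24 pairs above 0. VC.4 held the highest VC value of *Nfe2l2*, *Keap1*, *Nqo1* and *Hmox1*, whereas VC.1 held that of *Txnrd1*, *Srxn1* and *Gsr*. AP.1 held the lowest AP value of 6 genes and AP.2 the highest of 6.

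Among the 11256 other genes with a mean of at least 50 normalized counts, those whose deviations were most like those of *Nfe2l2* were *Dctn4* (r = 0.97), *Apool* (0.96), *Atpsckmt* (0.96), *Josd1* (0.95) and *Sh3pxd2a* (0.95). For *Nqo1* they were *Map7d1* (0.99), *Abcg1* (0.99), *Tmem168* (0.99), *Ube2g1* (0.98) and *Zyg11b* (0.97). These values are the highest of many over 8 libraries and are given without a test. The r between *Nqo1* and *Nfe2l2* themselves was 0.46.

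Of 4 other scalings, only total counts with the mitochondrial reads changed the number of the 10 genes called. Scaling by total counts only, mitochondrial reads included, moved the all-gene median from 0.06 to 0.90 and the share of calls that were higher from 61.3% to 99.2%. Upper-quartile factors moved that share to 49.9%. With total counts only, all 10 genes had a log2 fold change above 0 and 8 passed an adjusted p of 0.05 (limma), beside 54.2% of all genes called higher, and *Hmox1* (0.30, adjusted p = 0.452) and *Srxn1* (0.57, adjusted p = 0.0600) did not. By the criteria of the methods, 5 of the 10 were called higher under that scaling, beside 43.3% of all genes. Relative to the median of all genes the values moved little, most for *Slc7a11*, from 1.77 to 1.61, and from 0.35 to 0.35 for *Nqo1*, from 0.41 to 0.43 for *Gclc* and from -0.62 to -0.60 for *Hmox1*. Under either scaling 5 of the 10 genes lay above the median of all genes. Upper-quartile factors, TMM factors and total counts without the mitochondrially encoded genes each called 0 of the 10.

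**Figure D3:**
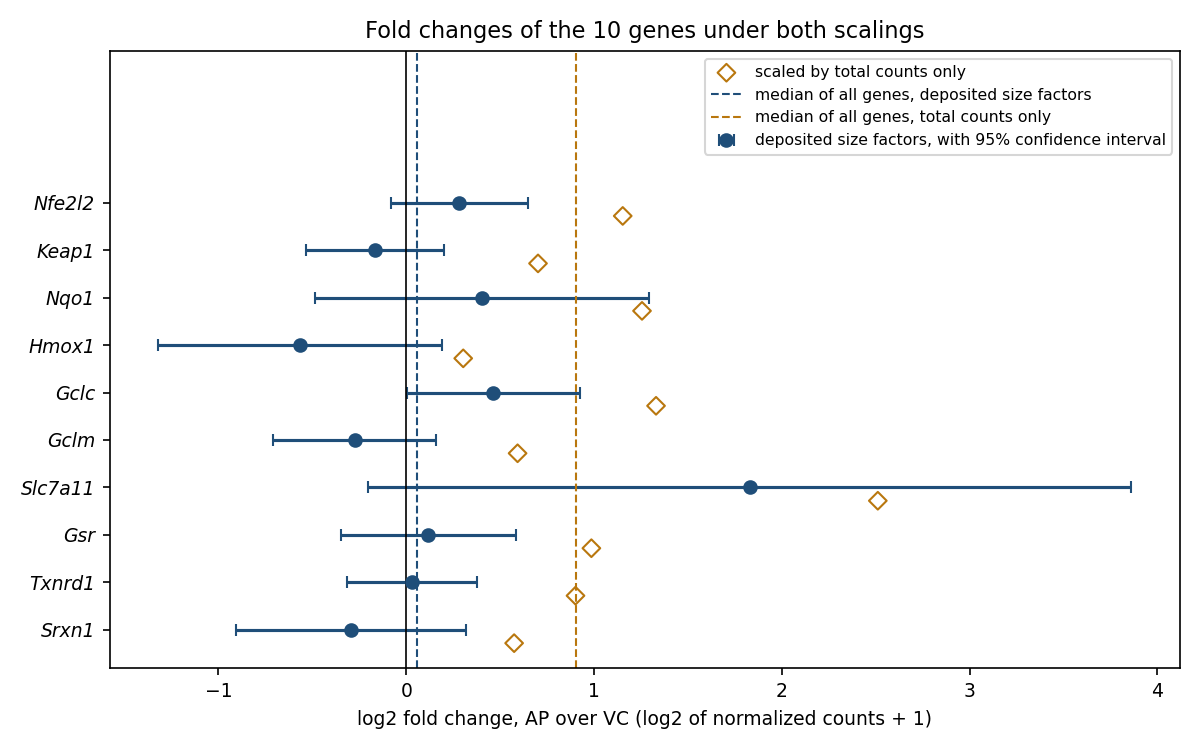
Log2 fold change of each gene, AP over VC, with the deposited size factors (filled circles, bars are 95% confidence intervals) and scaled by total counts only (open diamonds). Dashed lines mark the median of all genes tested, 0.06 with the deposited factors and 0.90 with total counts, and in both cases the genes scatter to either side of their line.

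The wider antioxidant pathway was read from 7 further lists with 76 genes in the table, of which 74 were tested. At an adjusted p under 0.05 (limma), 3 of the 74 rose with alpinetin and 5 fell, beside the 6.3% and 4.0% of all genes, which are also the background of each list below. Their median log2 fold change was -0.12 beside 0.06 for all genes, and 32 of the 74 were above 0 beside 53.5% of all genes. With total counts only, 45 of the 74 were called higher and 0 lower, beside 54.2% and 0.43% of all genes. Of 12 partners and regulators of Nrf2, 1 was higher and 1 lower. DESeq2 called 2 higher and 1 lower, beside 10.5% and 8.53% of all genes. The criteria of the methods gave 2 and 1, beside 8.3% and 5.3%. *Bach1* was the gene added, at 230 ± 62.0 and 387 ± 99.1 normalized counts (SD, n = 4 each). Its log2 fold change was 0.75 (SE 0.24, unadjusted p = 0.00906, adjusted p = 0.0647 from limma), and AP.1 lay within the VC range. *Gsk3b*, a kinase that marks Nrf2 for degradation apart from Keap1, rose from 339 ± 47.4 to 522 ± 76.6 normalized counts (SD, n = 4; log2 fold change 0.62, SE 0.17, adjusted p = 0.0414). With the trend on transcript length removed, *Gsk3b* was at 0.18 (adjusted p = 0.453, limma), and with total counts without the mitochondrially encoded genes it was at 0.66 (adjusted p = 0.0505). *Rbx1*, the RING subunit of the Keap1 and Cul3 ligase, fell from 872 ± 82.6 to 563 ± 46.5 (-0.63, SE 0.14, adjusted p = 0.0224). With total counts only, *Rbx1* was at 0.24 (adjusted p = 0.251, limma). *Nfe2l1*, the most abundant gene of the list and a relative of Nrf2, stood at 1536 ± 382 and 1823 ± 130 (0.28, adjusted p = 0.333). Its log2 fold change was 0.155 without VC.1, 0.417 without VC.2 and 0.0777 with the length trend removed. The median of the list was 0.21.

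None of 16 glutathione genes, 12 thioredoxin and peroxiredoxin genes, 6 NADPH supply genes and 4 superoxide dismutases and catalase passed the adjusted threshold in limma, although 2, 3, 1 and 1 of them had an unadjusted p under 0.05, beside 30.3% of all genes. Of the first list DESeq2 called 1 higher and 1 lower, edgeR 1 higher and limma-voom 1 lower, and of the next DESeq2 called 2 lower. The glutathione gene called higher by both tools was *Ggct*, at 248 ± 82.6 and 790 ± 513 normalized counts (SD, n = 4 each). Its log2 fold change was 1.43 (adjusted p = 0.0720, limma), with AP.1 inside the VC range. The gene called lower was *Gpx4* (-0.67, adjusted p = 0.0752, limma). No other tool called an NADPH supply gene. These calls stand beside 10.5% of all genes higher and 8.53% lower in DESeq2, 5.37% and 5.85% in limma-voom, and 6.28% and 4.46% in edgeR. Their medians were -0.38, -0.21, -0.00 and -0.04. The most abundant gene of each was *Gpx3*, a secreted glutathione peroxidase, at 10393 ± 3863 and 6531 ± 3575 normalized counts (log2 fold change -0.74, adjusted p = 0.201), *Txnip*, which binds thioredoxin (0.45, adjusted p = 0.228), *Tkt*, of the pentose phosphate pathway (-0.07, adjusted p = 0.839), and *Sod1* (-0.67, adjusted p = 0.0683). For *Sod1* the 4 AP libraries lay below the 4 VC libraries, and DESeq2 (adjusted p = 0.0373) and limma-voom (adjusted p = 0.0468) called it lower.

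Of 17 conjugation, reduction and export genes tested, 2 were higher and 2 lower, with a median of 0.36. An unadjusted p under 0.05 (limma) was reached by 8 of the 17, beside 30.3% of all genes. The groups did not overlap for 5, beside 10.3% of all genes entirely higher and 8.9% entirely lower. DESeq2 called 3 higher and 2 lower, beside 10.5% and 8.53% of all genes. The pumps *Abcc4* and *Abcc1*, which export conjugates from the cell, rose from 105 ± 45.3 to 255 ± 7.55 normalized counts (log2 fold change 1.37, SE 0.28, adjusted p = 0.0167) and from 224 ± 70.7 to 515 ± 97.7 (1.24, SE 0.24, adjusted p = 0.0151). The glutathione transferases *Gstm2* and *Gstp1* fell from 573 ± 126 to 309 ± 78.3 (-0.89, SE 0.22, adjusted p = 0.0328) and from 844 ± 153 to 490 ± 91.6 (-0.79, SE 0.19, adjusted p = 0.0266). With total counts only, *Gstm2* was at -0.0235 and *Gstp1* at 0.0826 (adjusted p = 0.927 and 0.707, limma). Both belong to families with closely similar copies, so their counts are uncertain to that extent. The most abundant gene of the list, *Mgst1*, had a log2 fold change of -0.20 (adjusted p = 0.700). Of 20 listed genes, *Gstm3* was not analysed here, and *Ugt1a6a* and *Abcc2* were too low to be tested.

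All 7 haem and iron genes had a log2 fold change below 0, with a median of -0.50, and 2 passed the threshold in limma and in edgeR and 3 in DESeq2 and in limma-voom, all lower. *Ftl1*, the ferritin light chain and the most abundant gene of the list, fell from 25993 ± 10529 to 10441 ± 2586 normalized counts (-1.26, SE 0.34, adjusted p = 0.0404), and *Blvra*, which reduces the biliverdin made by haem oxygenases, from 238 ± 36.5 to 141 ± 22.1 (-0.75, SE 0.19, adjusted p = 0.0343). *Ftl1* has processed copies in the genome, so its counts are uncertain as well. It was highest in VC.4 (38142) and VC.1 (31335), the libraries with the highest macrophage marker sums, and all 8 macrophage markers had a log2 fold change below 0 (median -0.82, none called by limma). The part of macrophages in the haem and iron genes was not tested. With total counts only, 5 of these 7 genes turned above 0, while the difference between the median of the list and that of all genes was -0.53, beside -0.56 with the deposited factors. *Ftl1* was at -0.39 under that scaling (adjusted p = 0.196, limma).

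Whether the 8 genes of the wider pathway passed depended on single libraries, while their fold changes kept their sign whichever library was left out. Without AP.3 none of the 8 passed (adjusted p 0.0544 to 0.131), and without AP.4 none did either (0.05001 to 0.111). Without AP.3 the log2 fold change was still 1.38 for *Abcc4*, 1.13 for *Abcc1*, -0.60 for *Rbx1* and -1.09 for *Ftl1*. Without AP.2 only *Abcc1* and *Abcc4* remained called, and without VC.1 or without VC.4 these and *Rbx1*. Without VC.2, *Gsk3b* and *Gstm2* were lost (0.0571 to 0.0690), and without VC.3 or AP.1 all 8 were called. With the trend on transcript length removed, *Abcc1*, *Abcc4* and *Rbx1* remained called, *Gsk3b* was lost as given above, and *Ftl1* (-0.99), *Gstm2* (-0.62), *Gstp1* (-0.53) and *Blvra* (-0.53) were lost at an adjusted p of 0.0763 to 0.0830. limma without the intensity trend kept *Abcc1* and *Abcc4* and lost the other 6 at unchanged fold changes (adjusted p 0.0608 to 0.0892), and without the filter *Ftl1* was lost (0.0559). The number of all genes called fell as well, to 209 higher and 94 lower without AP.3.

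**Figure D4:**
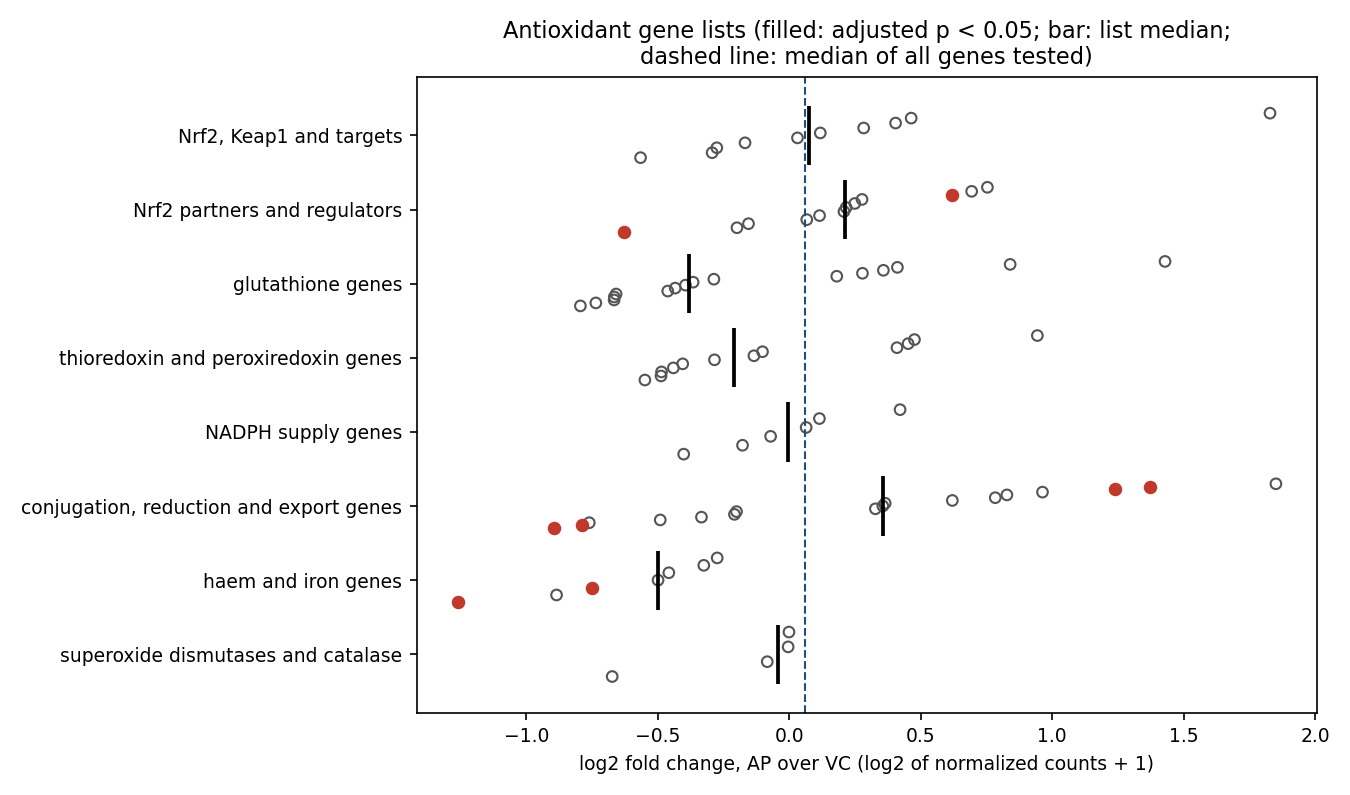
Log2 fold change, AP over VC, of each tested gene of the 10 Nrf2 pathway genes and of the 7 further lists, filled where the adjusted p from limma was under 0.05, with the list median as a vertical bar. The dashed line is the median of all genes tested (0.06), and 8 points are filled, none of them among the 10 genes, with *Ftl1* furthest to the left among the haem and iron genes at -1.26.

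The promoters were searched for the letters of the antioxidant response element core, TGACNNNGC and TGAGNNNGC, on both strands. RefSeq windows of 300 bases (250 before to 50 after the gene start, GRCm38.p6) were held for 7 of the 10 genes, 9 windows in all because *Txnrd1* has 3. No window was held for *Hmox1*, *Gclc* and *Gsr*. A match was found in 5 of the 9 windows, beside 27.8% of all 32851 windows. All 7 matches are shown, each on the strand on which it reads, with the matched letters in capitals and 10 bases on either side.
*Nfe2l2*, chr2:75704885-75704913, minus strand: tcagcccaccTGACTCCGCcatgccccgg
*Srxn1*, chr2:152105356-152105384, minus strand: ccagagaggaTGAGTCGGCtctcagtaga
*Srxn1*, chr2:152105469-152105497, plus strand: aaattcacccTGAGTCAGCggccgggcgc
*Srxn1*, chr2:152105542-152105570, minus strand: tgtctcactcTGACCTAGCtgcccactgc
*Slc7a11*, chr3:50443692-50443720, plus strand: aactccagctTGAGAAAGCgccaacatta
*Gclm*, chr3:122245413-122245441, minus strand: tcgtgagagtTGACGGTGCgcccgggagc
*Txnrd1*, chr10:82859104-82859132, minus strand: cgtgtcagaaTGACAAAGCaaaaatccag
*Srxn1* held 3 matches and each of the other 4 genes held 1. The plus-strand match of *Srxn1* overlaps the AP-1 letters TGAGTCA, which with their complement TGACTCA occur in 5.20% of all windows. The windows of *Nqo1* and *Keap1* and the other 2 windows of *Txnrd1* do not hold the letters of the response element core. Bases further than 250 before the gene start were not searched, so this absence holds for the windows only. A match is a description of letters and not a measured binding site.

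Markers of some of the cell types passed the test, unlike the 10 genes, and the gene named as leading a list is the most abundant of its list, whether or not it passed. Of 8 suprabasal keratinocyte markers, 7 rose at an adjusted p under 0.05 (limma), although the interfollicular epidermis had been removed. Their summed normalized counts, led by *Krt10*, were 5539, 12183, 8216 and 5291 in the VC libraries beside 42037, 39832, 116364 and 166570 in the AP libraries. Of 6 basal keratinocyte markers 3 were higher, with sums of 21902 to 78090 and 49171 to 138232, led by *Krt14*, and of 6 wound keratinocyte markers 3 were higher, with sums of 3733 to 8301 and 6794 to 36957, led by *Krt17*. Of these lists, *Krt6b* and *Sprr2d* were at 0 in VC.1 alone. Of 6 melanocyte markers 4 were lower (1509 to 4391 and 1194 to 2055, led by *Dct*), and of 4 endothelial markers 2 were higher (808 to 1719 and 2078 to 6246, led by *Vwf*). Of 3 neutrophil and 5 red blood cell markers tested, 1 of each was higher, in lists led by *S100a8* and *Hbb-bs*, with sums of 71.0 to 122 and 66.7 to 569 for neutrophils and 507 to 905 and 685 to 1550 for red blood cells. Of the neutrophil markers limma-voom called 0 and DESeq2 called 2 higher, and of the red blood cell markers DESeq2 called 1 higher and 1 lower. *Slc4a1* was at 0 in all VC libraries, *Alas2* in VC.1, and *Retnlg* in VC.2, VC.3, VC.4, AP.1 and AP.4. No marker of macrophages (led by *Lyz2*), fibroblasts (*Col1a1*), hair follicle (*Krt15*), adipocytes (*Fabp4*) or skeletal muscle (*Acta1*) passed the adjusted threshold in limma, while 5 of 8, 2 of 7, 2 of 8, 2 of 6 and 4 of 6 had an unadjusted p under 0.05, beside 30.3% of all genes. DESeq2 called 2 macrophage markers and 1 fibroblast marker lower and 2 hair follicle markers higher (beside 8.53% and 10.5% of all genes), limma-voom 1 fibroblast and 4 muscle markers lower (beside 5.85%), and edgeR 1 hair follicle marker higher (beside 6.28%). All 8 macrophage markers and all 6 muscle markers had a log2 fold change below 0, with medians of -0.82 and -1.65. Muscle sums were 31337 to 62422 in the VC libraries, and in the AP libraries 63650 in AP.1, the highest of all, 7876 in AP.2, 4684 in AP.3 and a value below every VC library in AP.4 as well. Macrophage sums were 17378, 8898, 7772 and 23202 in the VC libraries and 10881, 7387, 5332 and 5525 in the AP libraries. The part of these cell types and of the mitochondrial share in the values of the 10 genes and of the further lists was not tested.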

How the data were processed

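The signal values deposited by the authors are normalized counts: reads aligned to mm10 with STAR, counted per gene (featureCounts in the methods, HTSeq in the labels) and divided by 1 DESeq2 size factor per library. Other columns of the table hold the authors' own comparison (mean, log2 fold change with error, statistic, p-value, adjusted p-value) and were not used. All 150160 values were whole multiples of 1 step per library, within 0.01 reads, so reads were recovered. limma 3.58.1 (R 4.3.3, empirical Bayes, intensity trend) was fitted to log2(value + 1) of genes that reached 3 normalized counts in 4 or more of the 8 libraries, with Benjamini-Hochberg adjustment. edgeR 4.0.16, DESeq2 1.42.0 and limma-voom were run on the recovered reads. Steps were tested on simulated data. Of 18770 gene identifiers, 18766 are in GENCODE M21, which gave positions and transcript lengths. The genes and lists were chosen with earlier results of these data known. Named genes were the 10 genes, those of each further list with an adjusted p under 0.05 (at most 4), the most abundant gene of each list, and the 5 genes most like *Nfe2l2* and *Nqo1*. Markers at 0 and *Bach1*, *Ggct* and *Gpx4* were named after their values were seen. Alternatives were other scalings, pseudocounts, filters and tests, removal of a loess trend on transcript length, and leaving out each library. The shares of gene pairs were added after the ratios were seen.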

Additional observations from a re-analysis of the deposited data

Results flagged for a closer look

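In 2 of the 20 groups of 4 libraries (10 genes in each treatment), 1 library lay far from the other 3, where chance alone picks out about 1 group in 20. *Hmox1* in VC.4 stood at 883.1 normalized counts, and the other VC libraries lay between 288 and 350. *Gsr* in AP.2 stood at 234 normalized counts, and the other AP libraries lay between 223.2 and 225, a gap that is wide only beside the close spacing of those 3 libraries.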

How the results depend on the processing

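The comparison rests on 4 libraries per group that differ in depth, mitochondrial share and cell type markers, and none of these was tested as a part of the results. The exact permutation test cannot go below 0.0286. No paired analysis was possible because the sample numbers of the groups are not shared. Absolute RNA amounts were not measured, so scaling by total counts cannot be told apart from a shift of all genes. With total counts only, 8 of the 10 genes were called higher by adjusted p and 5 by the criteria of the methods, beside 0 and 0, 45 other pathway genes were called higher and 0 lower, beside 3 and 5, and 8652 of all genes higher and 69 lower, beside 1011 and 639. The sign turned for *Keap1* (0.70), *Hmox1* (0.30), *Gclm* (0.59), *Srxn1* (0.57), *Rbx1* (0.24), *Gpx3* (0.14), *Tkt* (0.80), *Gstp1* (0.0826), *Mgst1* (0.67), *Blvra* (0.12) and *Sod1* (0.20). *Txnrd1* turned to -0.0296 with upper-quartile factors, and *Txnrd1* (-0.0621) and *Mgst1* (0.0651) turned with the length trend removed. DESeq2 called 6 other pathway genes higher and 10 lower, and 1677 and 1362 of all genes. limma without the intensity trend called 0 other pathway genes lower, and 376 of all genes higher and 216 lower. limma-voom called 8 other pathway genes lower, beside 934 of all genes. With the length trend removed, 2 other pathway genes were lower, beside 531 of all genes, and 580 of all genes were higher. Leaving out each library in turn gave 0 to 1 of the 10 genes lower by the criteria of the methods (*Srxn1*, without VC.3), 0 to 5 other pathway genes higher and 0 to 5 lower, and 209 to 1082 of all genes higher and 94 to 817 lower. The fold changes of *Txnrd1* (-0.0414 to 0.0988), *Gsr* (-0.0126 to 0.29), *Tkt* (-0.17 to 0.11) and *Mgst1* (-0.35 to 0.13) then took both signs.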
